A study of Caenorhabditis elegans with 12 samples.

Results

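Cytochrome P450 genes were followed in the RNA sequencing (RNA-seq) of whole Caenorhabditis elegans worms at the L4 larval stage, in which the mitochondrial electron transport chain was perturbed by RNA interference (RNAi). The genes were chosen by symbol. Of 80 gene symbols that begin with cyp-, 73 had at least 10 counts summed over the 12 libraries, out of 46920 rows in the count table. The other 7 (cyp-13A9, cyp-25A6, cyp-33C1, cyp-34A3, cyp-35B2, cyp-35B3 and cyp-35D2) had fewer and were set aside. The 4 groups held 3 libraries each: lin-40(yth27) mutants on cco-1 RNAi, lin-40(yth27) mutants on empty vector (EV), WT (N2) worms on cco-1 RNAi and WT worms on EV. Worms of both genotypes hatched on their bacteria, were raised at 20°C and gave polyadenylated RNA from the whole animal, so that fewer cells of a type and less RNA per cell cannot be told apart. The cco-1 bacteria are given in the labels as a mixture of EV and cco-1 RNAi bacteria, with no ratio. cco-1, listed here under its present symbol cox-5B, encodes a subunit of complex IV. lin-40 encodes a scaffold of the nucleosome remodeling and deacetylase (NuRD) complex, and yth27 is a point mutation from a mutagenesis screen, a single allele whose presence cannot be read from the lin-40 level.

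P450s are heme enzymes that insert an oxygen atom into their substrates with electrons from a P450 reductase. In C. elegans they act mostly in the intestine and hypodermis, where some oxidise foreign compounds and others work on fatty acids, sterols and eicosanoids. Many belong to large subfamilies of neighbouring duplicated genes that respond to xenobiotics and to mitochondrial dysfunction. The steroid hormone enzyme DAF-9 is also a P450 but carries no cyp- symbol and was followed only as a pathway gene.

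The 73 genes fell into 15 families and 25 subfamilies, and 70 of them were annotated as protein coding and 3 (cyp-25A5, cyp-29A1 and cyp-31A1) as pseudogenes. By position in the WBcel235 build, 38 lay on chromosome V, 12 on II, 8 each on IV and X, 6 on III and 1 on I. A total of 43 stood in 12 clusters in which neighbouring cyp genes were less than 20 kb apart. Levels are given as CPM, the counts of a gene relative to the scaled total of its library. Counts were tested for 58 genes that passed a filter on low counts, set at about 0.494 CPM of the library total before that scaling. Of these, 44 were above that level in all 12 libraries, and 6 (cyp-13A7, cyp-25A1, cyp-33C2, cyp-35A1, cyp-35B1 and cyp-35D1) were below it in every library of at least 1 group. The other 15 had 17 to 94 counts over the 12 libraries and no more than 18 in any library. A gene that passed only through the group in which it was higher had to differ.

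Library totals lay between 18553449 and 22538076 counts. The cox-5B level was 177, 224 and 257 CPM in lin-40(yth27) worms on cco-1 RNAi, against 413, 425 and 409 CPM in lin-40(yth27) worms on EV. In WT worms it was 143, 144 and 193 CPM on cco-1 RNAi, against 517, 474 and 492 CPM on EV. The targeted transcript was lower in all 6 treated libraries (log2 fold change -0.92 ± 0.16, edgeR adjusted p = 0.0187, in lin-40(yth27) and -1.63 ± 0.16, adjusted p = 0.000376, in WT), and its level was lowest in the lin-40(yth27) cco-1 group in replicate 1. The summed level of 5 oocyte markers differed widely within groups, at 383 to 408 CPM in mutants on cco-1 RNAi, 346 to 585 CPM in mutants on EV, 111 to 832 CPM in WT on cco-1 RNAi and 99.9 to 406 CPM in WT on EV. Of 10 intestinal markers, 1 (cpr-1) was called lower upon cco-1 RNAi treatment in WT, as were 2 of 7 hypodermal markers (dpy-7 and dpy-10) and 1 of 5 body wall muscle markers (mup-2). None of the pharyngeal, neuronal, germline or oocyte markers was called, and no marker was called upon cco-1 RNAi treatment in lin-40(yth27) worms. The part of tissue composition and of knockdown in the results below was not tested.

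Compared per kilobase of exon over the 12 libraries, the most abundant transcripts were cyp-33C8 (43.1 CPM per kb), cyp-35A2 (39.3), the annotated pseudogene cyp-31A1 (21.9), cyp-35C1 (16.6), cyp-33C9 (15.8), cyp-14A4 (15.4), cyp-35A3 (15.1) and cyp-37A1 (12.98). Their shares of the summed P450 CPM depended on the bacteria. On EV, cyp-35A2 took 14.8 to 16.2% of all P450 CPM in lin-40(yth27) worms and 17.5 to 22.9% in WT worms. On cco-1 RNAi, cyp-33C8 took 15.0 to 23.3% in lin-40(yth27) worms and 21.8 to 24.6% in WT worms, against 1.87 to 3.43% over the EV libraries of both genotypes. Summed over all P450 genes, mutant worms had 539 ± 97.8 CPM on cco-1 RNAi and 446.5 ± 12.99 CPM on EV, and WT worms 691 ± 70.7 CPM on cco-1 RNAi and 509 ± 16.4 CPM on EV (SD, n = 3 each). Without cyp-33C8 and cyp-14A4, both far higher on cco-1 RNAi, these sums overlapped, at 369 to 453, 415 to 440, 434 to 519 and 474 to 512 CPM in the same order of groups. Because this pair was taken from these data and cyp-35A2, which was lower on cco-1 RNAi, was left in, the overlap only describes the sums.

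**Figure D1:**
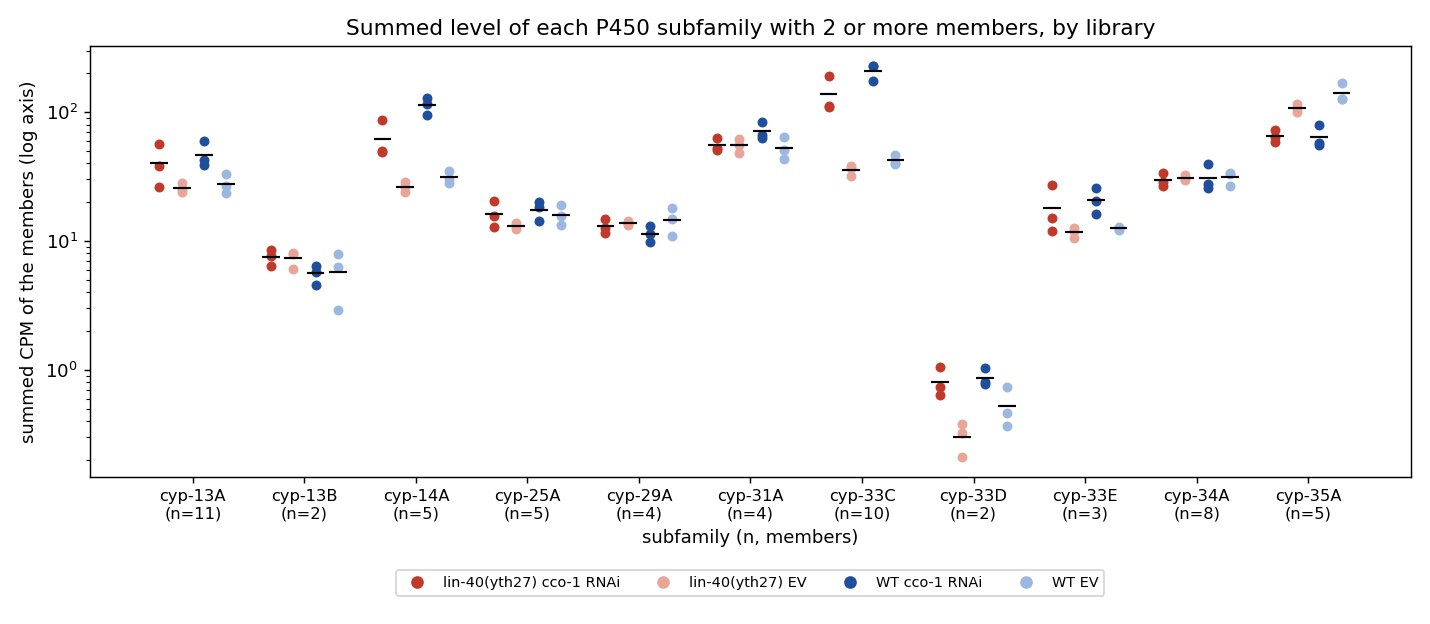
Summed CPM (log axis) of the members of each P450 subfamily with at least 2 members, for each library (points) and as group means (black lines), in lin-40(yth27) cco-1 RNAi, lin-40(yth27) EV, WT cco-1 RNAi and WT EV from left to right. The cyp-33C and cyp-14A sums lie higher on cco-1 RNAi and the cyp-35A sum lies lower, without overlap in either genotype, while cyp-34A and cyp-29A sums overlap.

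The first comparison asked which P450 genes responded to mitochondrial stress in WT worms. Upon cco-1 RNAi treatment, 10 of the 58 tested genes were up-regulated and 7 were down-regulated at an adjusted p under 0.05 in edgeR's quasi-likelihood test. Among all 14867 genes tested, 2.17% were called higher and 4.08% lower. The median log2 fold change of the 58 genes was 0.02, beside 0.06 for all genes, whereas the median of its absolute value was 0.648, beside 0.287 for all genes. The P450 genes thus moved apart in both directions, with no common shift. The up-regulated genes belonged to subfamilies 33C (5 of 7 tested, with cyp-33C2 among the 5), 14A (3 of 5), 13A (1 of 8) and 32B (1 of 1), and 4 of the 7 down-regulated genes belonged to family 35. Since cyp-33C2 passed the filter on low counts only through cco-1 libraries, its call does not count as support. cyp-13A8, the called 13A gene, was above the filter level in 3 cco-1 libraries of each genotype but in only 1 EV library of each. It too passed through cco-1 libraries, and its call does not count as support either. With no filter, 10 of all 73 members, cyp-33C2 and cyp-13A8 among them, were called higher and 7 lower. Of all genes with any count, 3.75% were called in either direction. The members needed at least 10 counts over the libraries, so these shares have different floors. Throughout, lack of overlap between the libraries of compared groups is a description and not a test. The share of all genes without overlap was not computed.

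In the 14A subfamily, cyp-14A4 (WBGene00011009, X:13282043-13284197, minus strand) had the largest change of all called P450 genes. Its promoter is used as a reporter of the detoxification response to mitochondrial dysfunction. It was measured at 51.4, 88.9 and 42.4 CPM in WT worms on cco-1 RNAi, against 2.42, 2.55 and 0.927 CPM in WT worms on EV. The groups were far apart, with the lowest cco-1 library above every EV library, and the log2 fold change was 4.95 ± 0.53 (SE; edgeR adjusted p = 0.000608), a 31.01-fold higher level. cyp-14A1 stood at 14.2, 13.9 and 15.2 CPM on cco-1 RNAi, against 3.43, 3.61 and 3.81 CPM on EV, a narrow spread in both groups (log2 fold change 1.99 ± 0.33, edgeR adjusted p = 0.00536). cyp-14A5, which lies apart from the others on chromosome V, had 36.96, 17.9 and 23.8 CPM on cco-1 RNAi, against 8.04, 4.49 and 4.94 CPM on EV. All 3 cco-1 libraries were above the EV libraries (log2 fold change 2.17 ± 0.38, edgeR adjusted p = 0.00783), and without WT EV replicate 3 the adjusted p was 0.0505.

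The X chromosome cluster of this subfamily (X:13265041-13284197, WBcel235) did not move as a block. cyp-14A2, the neighbour of cyp-14A1, was down-regulated, with 7.35, 5.04 and 9.57 CPM in WT worms on cco-1 RNAi, against 13.3, 18.3 and 21.6 CPM on EV. The groups did not overlap (log2 fold change -1.28 ± 0.27, edgeR adjusted p = 0.0193). The call was lost without WT cco-1 RNAi replicate 2 or WT EV replicate 3 (adjusted p of 0.0591 to 0.0966). cyp-14A3, between cyp-14A2 and cyp-14A4, had a log2 fold change of 1.05 ± 0.45 and did not pass (edgeR adjusted p = 0.208). Within 1 cluster of 4 genes, cco-1 RNAi therefore went with a higher level of both outer genes and a lower level of an inner one.

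Among the 33C genes, cyp-33C8 (WBGene00019967, V:3800782-3803542, minus strand) was the gene with the highest level per kb over the 12 libraries. It was measured at 170, 178 and 133 CPM in WT worms on cco-1 RNAi, against 15.6, 9.81 and 12.6 CPM on EV. All cco-1 libraries were above all EV libraries (log2 fold change 3.66 ± 0.30, edgeR adjusted p = 0.000162), a 12.7-fold higher level. cyp-33C9, the other abundant gene of the subfamily, differed less, with 40.8, 38.8 and 28.9 CPM on cco-1 RNAi, against 24.9, 22.96 and 18.4 CPM on EV (log2 fold change 0.71 ± 0.15, edgeR adjusted p = 0.0197). Its groups did not overlap either, but the call was lost without any 1 of 4 WT libraries (cco-1 RNAi replicates 1 and 2, EV replicates 2 and 3), with an adjusted p of 0.0542 to 0.0969.

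The other called 33C genes stayed below 10 CPM. cyp-33C4 had 7.14, 6.96 and 4.90 CPM in WT worms on cco-1 RNAi, against 2.76, 2.41 and 2.78 CPM on EV (log2 fold change 1.26 ± 0.31, edgeR adjusted p = 0.0372). cyp-33C5 had 2.17, 1.70 and 1.66 CPM on cco-1 RNAi, against 0.506, 0.648 and 0.875 CPM on EV (log2 fold change 1.43 ± 0.32, edgeR adjusted p = 0.024). cyp-33C2 had 0.466, 0.669 and 0.943 CPM on cco-1 RNAi, against 0, 0.0926 and 0.103 CPM on EV, with no EV library of either genotype above the filter level (log2 fold change 3.25 ± 0.67, edgeR adjusted p = 0.0159, and 0.0209 with no filter). The WT groups of cyp-33C4, cyp-33C5 and cyp-33C2 did not overlap. The call for cyp-33C4 was lost without any 1 of 8 libraries (adjusted p of 0.0574 to 0.122), that for cyp-33C5 without any 1 of 4 (both WT replicates 1 and both WT replicates 2, adjusted p of 0.0626 to 0.0774) and that for cyp-33C2 without WT EV replicate 3 (0.0577). The libraries for cyp-33C4 were the WT EV libraries, WT cco-1 RNAi replicates 1 and 2, lin-40(yth27) EV replicates 2 and 3 and lin-40(yth27) cco-1 RNAi replicate 2. cyp-33C3 and cyp-33C7, from the same cluster as cyp-33C4 and cyp-33C5, had log2 fold changes of -0.45 ± 0.48 and 0.34 ± 0.27 and did not pass.

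cyp-32B1, of a family related to fatty acid hydroxylases, lies among the 33C genes at V:2197997-2201415 (minus strand). Its level was 16.2, 11.3 and 12.2 CPM in WT worms on cco-1 RNAi, against 5.40, 8.10 and 6.08 CPM on EV. All 3 cco-1 libraries were higher (log2 fold change 1.02 ± 0.22, edgeR adjusted p = 0.0197). This call was lost without WT cco-1 RNAi replicate 1 or WT EV replicate 1 or 3 (adjusted p of 0.0586 to 0.0969).

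**Figure D2:**
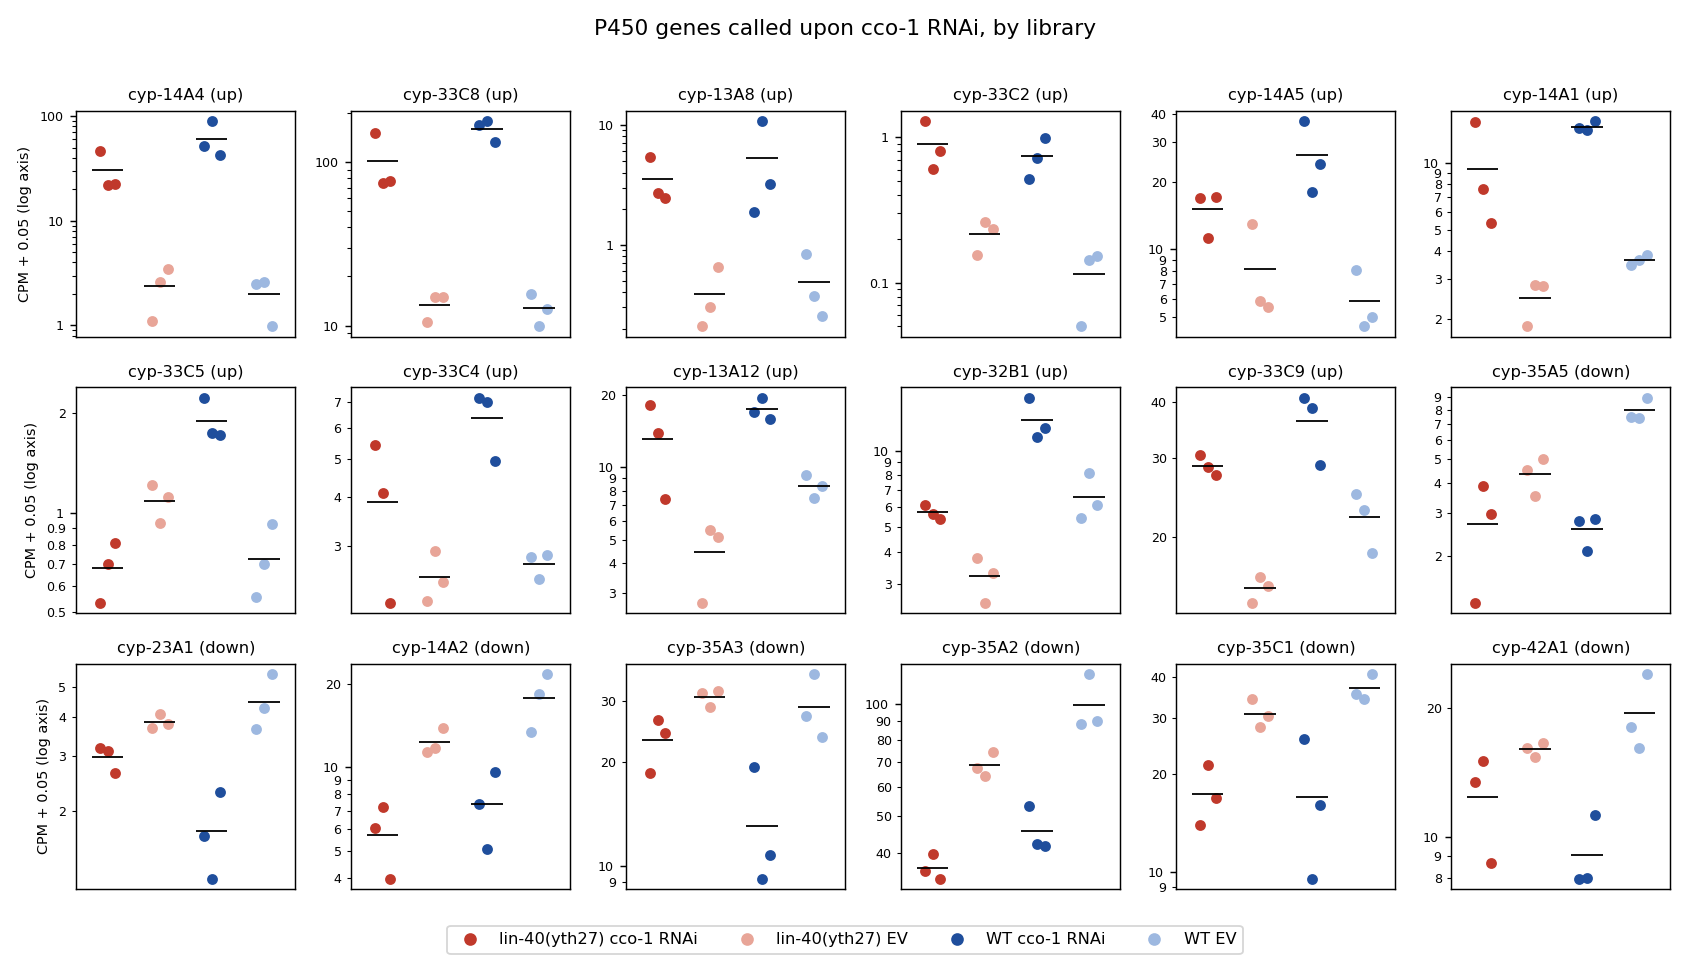
CPM + 0.05 (log axis) in each library (points) with group means (black lines) for the 18 P450 genes called upon cco-1 RNAi treatment in at least 1 genotype, marked up or down, with lin-40(yth27) cco-1 RNAi, lin-40(yth27) EV, WT cco-1 RNAi and WT EV from left to right. cyp-14A4 and cyp-33C8 are separated by bacteria in both genotypes, whereas cyp-33C5 is above its EV libraries only in WT worms on cco-1 RNAi.

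Genes of the 13A subfamily, which includes the rifampicin-responsive cyp-13A7, had changes in both directions, several with wide spreads. cyp-13A8 had 1.81, 10.6 and 3.19 CPM in WT worms on cco-1 RNAi, against 0.788, 0.324 and 0.206 CPM on EV (log2 fold change 3.58 ± 0.75, edgeR adjusted p = 0.0178). Replicate 2 on cco-1 RNAi was far above the others, and without it the log2 fold change was 2.49 with an adjusted p of 0.0604. The call was also lost without WT EV replicate 2 or 3, with adjusted p up to 0.0969. The 4 genes at 1 end of the chromosome II cluster (cyp-13A5, cyp-13A6, cyp-13A7 and cyp-13A8, of II:9779181-9807569) had log2 fold changes of 1.34 ± 0.48, 1.63 ± 0.50, 3.91 ± 1.17 and 3.58 ± 0.75. Those of cyp-13A2 and cyp-13A4 from the same cluster were -0.45 ± 0.31 and -0.91 ± 0.81. Of these 6, only cyp-13A8 passed, and WT cco-1 RNAi replicate 2 held the highest level of 13A5, 13A6, 13A7 and 13A8 in WT. cyp-13A7 and cyp-13A8 entered the test through cco-1 libraries, so their positive changes do not count as support. cyp-13A12, known for its part in the behavioral response to reoxygenation, had 17.0, 19.4 and 15.9 CPM on cco-1 RNAi, against 9.23, 7.41 and 8.34 CPM on EV. Its groups did not overlap, but the log2 fold change of 1.06 ± 0.31 missed the threshold (edgeR adjusted p = 0.0669), and part of its reads were shared with another gene, as its counts were fractional in 10 libraries.

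**Figure D3:**
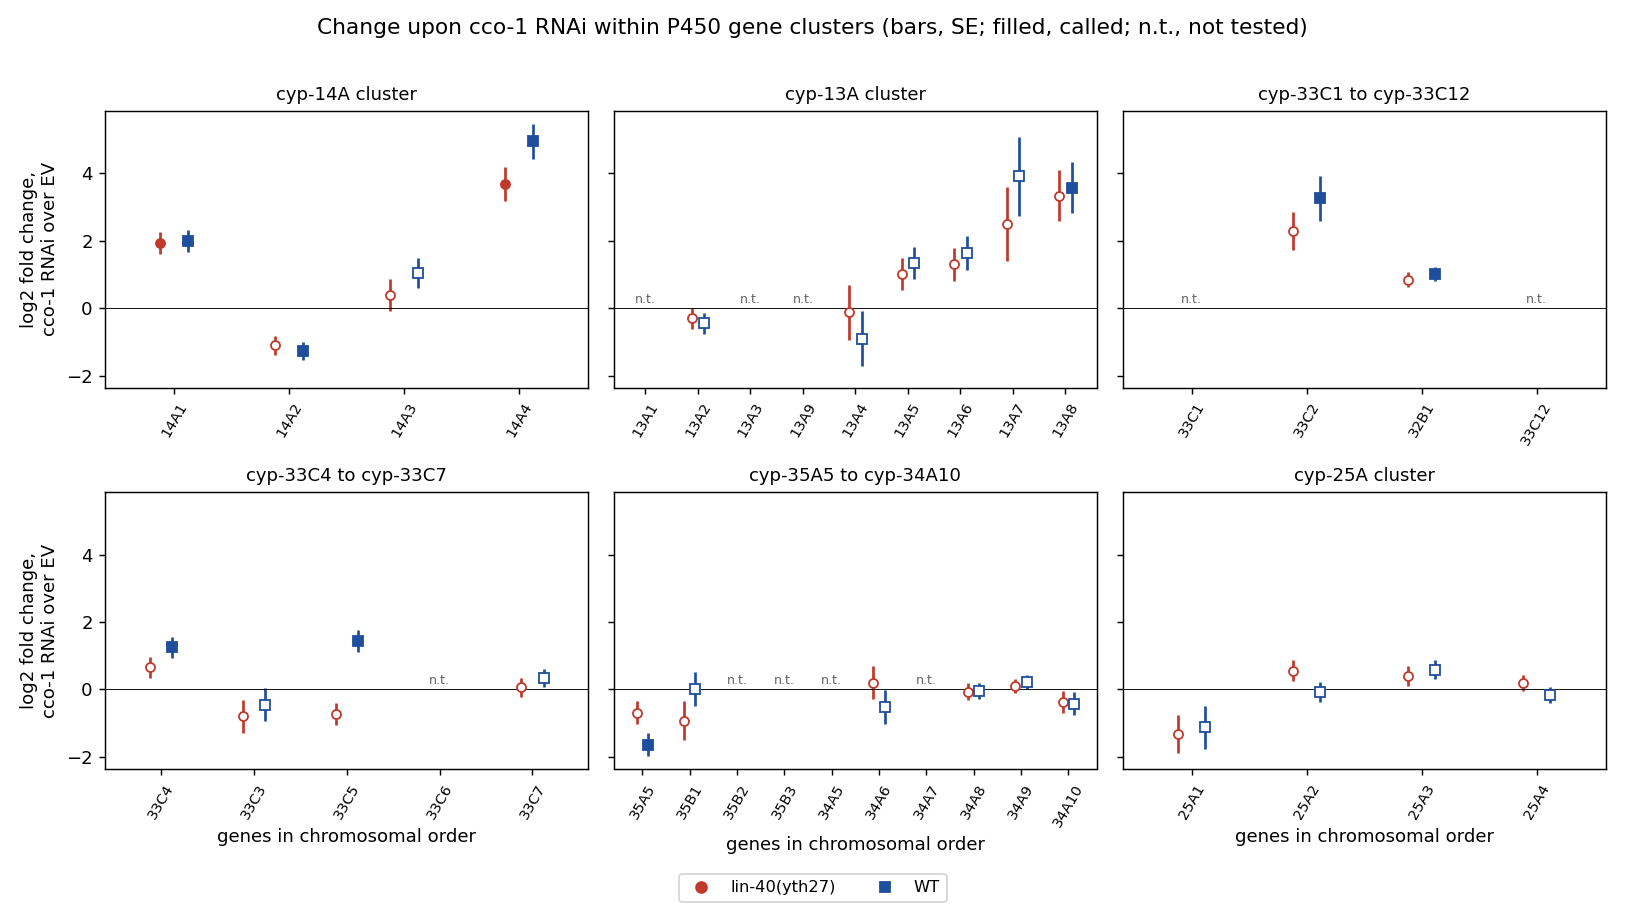
Log2 fold change upon cco-1 RNAi treatment over EV (vertical axis, points with SE bars) for the genes of 6 P450 clusters in chromosomal order (horizontal axis), with lin-40(yth27) (circles) to the left of WT (squares). Filled symbols passed the test and n.t. marks genes not tested. Opposite signs stand next to each other in the cyp-14A cluster, and the tested cyp-34A genes lie between -0.53 and 0.21 in WT.

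The down-regulated genes were led by the 35A subfamily, xenobiotic-inducible intestinal genes with a known role in fat storage. cyp-35A2 (WBGene00015400, V:7362319-7364182, minus strand) was measured at 53.3, 42.2 and 41.5 CPM in WT worms on cco-1 RNAi, against 88.4, 120 and 89.6 CPM on EV. The lowest EV library was above the highest cco-1 library (log2 fold change -1.12 ± 0.15, edgeR adjusted p = 0.00193). cyp-35A3 had 19.3, 9.14 and 10.7 CPM on cco-1 RNAi, against 27.1, 35.97 and 23.6 CPM on EV (log2 fold change -1.15 ± 0.26, edgeR adjusted p = 0.0248). cyp-35A5 had 2.74, 2.05 and 2.79 CPM on cco-1 RNAi, against 7.43, 7.31 and 8.91 CPM on EV (log2 fold change -1.64 ± 0.34, edgeR adjusted p = 0.0174). Both were lower in all 3 cco-1 libraries. cyp-35A4, next to cyp-35A3, had a log2 fold change of -0.78 ± 0.28 (adjusted p = 0.133), and cyp-35A1, at or below 0.45 CPM in all WT libraries, 0.45 ± 1.15. The call for cyp-35A3 was lost without WT cco-1 RNAi replicate 2 or 3 or WT EV replicate 2 (adjusted p of 0.0783 to 0.0974), and that for cyp-35A5 without WT cco-1 RNAi replicate 2 or WT EV replicate 3 (0.0744 to 0.0781).

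cyp-35C1, another xenobiotic-inducible gene, had 25.7, 9.46 and 15.99 CPM in WT worms on cco-1 RNAi, against 35.4, 34.3 and 40.9 CPM on EV. It was lower in all 3 cco-1 libraries (log2 fold change -1.12 ± 0.29, edgeR adjusted p = 0.0419). The call held without WT cco-1 RNAi replicate 1 and without lin-40(yth27) cco-1 RNAi replicate 1, and was lost without any 1 of the other 10 libraries (adjusted p of 0.052 to 0.146). The 34A genes, which share a cluster with cyp-35A5 and cyp-35B1 (V:3936326-3972991), had no call among 6 tested, with log2 fold changes between -0.53 and 0.21. cyp-34A9, the highest of them per kb, had 18.3, 10.9 and 11.2 CPM on cco-1 RNAi and 11.3, 10.7 and 13.03 CPM on EV, with overlapping groups.

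cyp-23A1 and cyp-42A1, each the only gene of its family, were down-regulated too. cyp-23A1 had 1.60, 1.16 and 2.25 CPM in WT worms on cco-1 RNAi, against 3.60, 4.21 and 5.46 CPM on EV (log2 fold change -1.40 ± 0.27, edgeR adjusted p = 0.0115). cyp-42A1 had 7.92, 7.94 and 11.2 CPM on cco-1 RNAi, against 18.1, 16.1 and 24.0 CPM on EV (log2 fold change -1.10 ± 0.22, edgeR adjusted p = 0.0154). Neither gene's groups overlapped. Without WT EV replicate 3 the adjusted p was 0.0629 for cyp-23A1, and for cyp-42A1 the call was lost without that library or without WT cco-1 RNAi replicate 2 (adjusted p of 0.0566 to 0.0787).

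Same-numbered WT libraries deviated together from their group means. With the replicate number as a block within WT, 14 P450 genes were higher and 8 lower, beside 4.35% higher and 6.62% lower of all genes. All 17 calls remained, and the paired fit added cyp-13A6 (log2 fold change 1.69, adjusted p = 0.038), cyp-13A7 (3.95, adjusted p = 0.0146), cyp-13A12 (1.07, adjusted p = 0.0439), cyp-33E2 (1.25, adjusted p = 0.0363) and cyp-37A1 (-0.83, adjusted p = 0.0418) by edgeR's test. cyp-13A7, like cyp-33C2, entered the test only through cco-1 libraries, and its call does not count as support either. cyp-33E2 makes eicosanoids in the pharynx, and had 12.6, 20.1 and 9.25 CPM in WT worms on cco-1 RNAi, against 5.34, 6.57 and 4.995 CPM on EV. Its groups did not overlap, and its adjusted p without the block was 0.0714.

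The second comparison addressed the same treatment in worms with the NuRD scaffold mutation. In lin-40(yth27) worms, 5 of 58 P450 genes were up-regulated upon cco-1 RNAi treatment and 1 was down-regulated, beside 0.827% higher and 0.336% lower of all genes. The 5 up-regulated genes were cyp-14A4, cyp-33C8, cyp-14A1, cyp-13A12 and cyp-33C9, and the down-regulated gene was cyp-35A2. The median absolute log2 fold change was 0.404 for the P450 genes and 0.221 for all genes. All but cyp-13A12 were also called in WT.

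cyp-14A4 had 46.8, 21.8 and 22.499 CPM in lin-40(yth27) worms on cco-1 RNAi, against 1.05, 2.56 and 3.43 CPM in lin-40(yth27) worms on EV (log2 fold change 3.68 ± 0.50, edgeR adjusted p = 0.00687), a 12.9-fold higher level. cyp-33C8 had 151, 74.8 and 77.3 CPM on cco-1 RNAi, against 10.4, 14.9 and 15.0 CPM on EV (log2 fold change 2.91 ± 0.29, edgeR adjusted p = 0.00129), a 7.55-fold higher level. The groups were far apart for both genes, and within the cco-1 group replicate 1 was close to the WT level while replicates 2 and 3 were lower. cyp-14A1 repeated this order, with 15.1, 7.60 and 5.32 CPM on cco-1 RNAi, against 1.79, 2.77 and 2.73 CPM on EV (log2 fold change 1.94 ± 0.33, edgeR adjusted p = 0.0195). Replicate 1 was the highest of the group for 8 of the 10 genes up-regulated in WT and for 33 of all 58 tested genes, and it was also the library with the lowest cox-5B level. Without it, the log2 fold changes were 3.24 for cyp-14A4, 2.52 for cyp-33C8 and 1.43 for cyp-14A1, and these were the 3 calls left (adjusted p of 0.0227, 0.00122 and 0.0357).

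cyp-33C9 had 30.4, 28.6 and 27.4 CPM in lin-40(yth27) worms on cco-1 RNAi, against 14.2, 16.2 and 15.5 CPM on EV (log2 fold change 0.91 ± 0.15, edgeR adjusted p = 0.0187). Here replicate 1 did not stand apart, and all 3 cco-1 libraries were above the EV libraries. cyp-13A12 had 18.1, 13.8 and 7.35 CPM on cco-1 RNAi, against 2.69, 5.41 and 5.097 CPM on EV (log2 fold change 1.57 ± 0.32, edgeR adjusted p = 0.0412). Its call was lost without any 1 of 10 libraries, all but WT cco-1 RNAi replicate 1 and lin-40(yth27) cco-1 RNAi replicate 3 (adjusted p of 0.0504 to 0.141). cyp-35A2 had 35.7, 39.5 and 33.97 CPM on cco-1 RNAi, against 67.4, 63.9 and 74.0 CPM on EV (log2 fold change -0.91 ± 0.15, edgeR adjusted p = 0.0185), with no overlap. Several of these calls were lost without 1 lin-40(yth27) library: cyp-33C9 without any 1 of the 6 (adjusted p of 0.0532 to 0.107), cyp-35A2 without any but cco-1 RNAi replicate 2 (0.0607 to 0.103), cyp-14A1 without any 1 EV library (0.0868 to 0.0991) and cyp-14A4 without EV replicate 2 (0.0528). The cyp-33C8 call held without each of the 12 libraries.

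Of the WT calls, 12 did not pass in lin-40(yth27) worms. In 11 of these the lin-40(yth27) change had the WT sign, with log2 fold changes from 0.66 ± 0.31 (cyp-33C4) to 3.34 ± 0.76 (cyp-13A8) for the genes higher in WT and from -1.10 ± 0.27 (cyp-14A2) to -0.37 ± 0.22 (cyp-42A1) for those lower in WT. cyp-33C2 and cyp-13A8 are among these 11. They passed the filter on low counts through cco-1 libraries of both genotypes, so their sign does not count as support. Of the 12, cyp-33C5 was the exception. It had 0.485, 0.649 and 0.761 CPM in lin-40(yth27) worms on cco-1 RNAi and 1.16, 0.881 and 1.07 CPM in lin-40(yth27) worms on EV, so that its groups did not overlap and lay in the order opposite to WT. The change did not pass (log2 fold change -0.72 ± 0.33, edgeR adjusted p = 0.421) and rested on 11 to 23 counts per library. An opposite response in the mutant was therefore not shown.

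**Figure D4:**
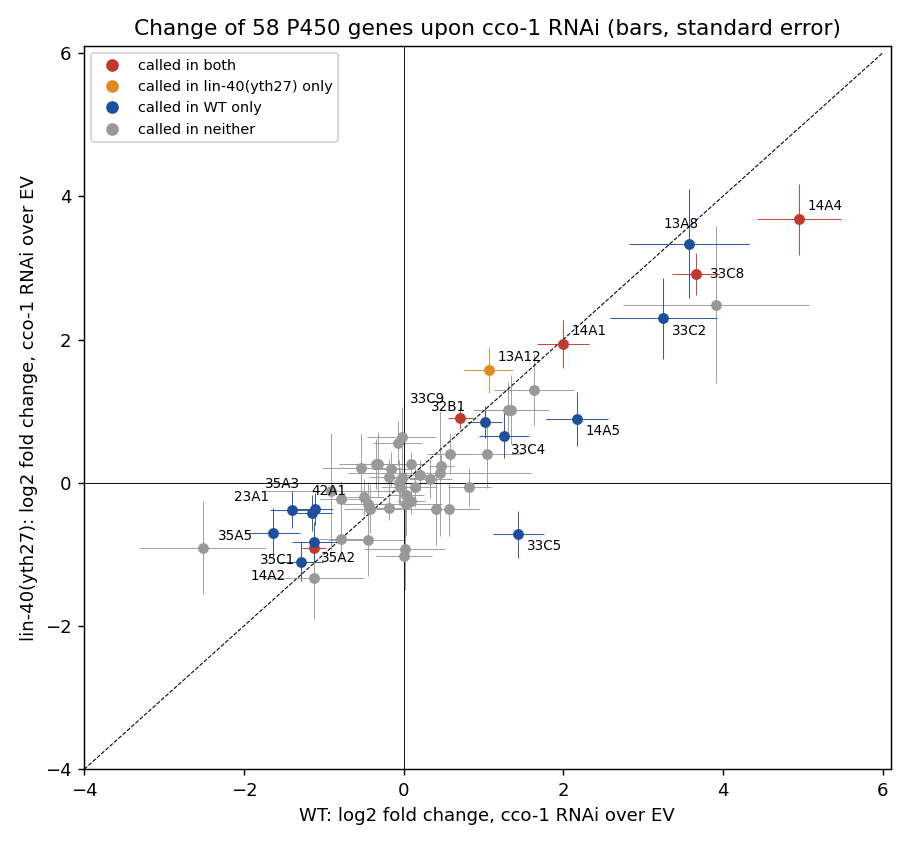
Log2 fold change upon cco-1 RNAi treatment over EV in lin-40(yth27) worms (vertical axis) and in WT worms (horizontal axis) for the 58 tested P450 genes, with SE bars and a dashed line of equal change; red genes passed in both genotypes, orange in lin-40(yth27) and blue in WT. Among the genes called in at least 1 genotype (coloured and labelled), only 33C5 lies in a quadrant of opposite signs, and 14A4 and 33C8 lie below the line by 1.27 and 0.75. 33C2 and 13A8 passed the filter on low counts through cco-1 libraries of both genotypes.

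The difference between these changes was tested as an interaction, the change in lin-40(yth27) minus the change in WT. No P450 gene passed in edgeR's test (0 of 58, lowest adjusted p = 0.388) or in DESeq2, beside 0% of all genes in edgeR's test and 0.39% in DESeq2. At an unadjusted p under 0.05, 2 P450 genes had a higher and 3 a lower difference, beside 6.84% and 4.51% of all genes, so their share was near the background. The largest of these was that of cyp-33C5 (-2.15 ± 0.46, unadjusted p = 0.000556, edgeR adjusted p = 0.388, between 0.0595 and 0.647 over the alternatives run). It was followed by cyp-23A1 (1.03 ± 0.37), cyp-14A5 (-1.28 ± 0.53), cyp-42A1 (0.73 ± 0.31) and cyp-32A1 (-0.88 ± 0.38), with edgeR adjusted p between 0.41 and 0.429. For cyp-14A4 and cyp-33C8 the differences were -1.27 ± 0.67 and -0.75 ± 0.39. When libraries were instead paired by their short sample names, an alternative added after seeing the data in which lin-40(yth27) cco-1 RNAi replicate 1 and EV replicate 2 had no partner and so did not enter the mutant change, the difference for cyp-33C8 was -1.07 ± 0.26 and passed (edgeR adjusted p = 0.0423). It was the only P450 gene of 58 to do so, in a fit that called 6.88% of all genes. A smaller induction in the mutant was not shown for cyp-14A4, and for cyp-33C8 the call depended on this pairing.

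The genotypes were next compared on the same bacteria. On EV, no P450 gene differed in edgeR's test (0.202% higher and 0.175% lower of all genes), while 6 were lower and none was higher at an unadjusted p under 0.05 (7.43% lower and 7.53% higher of all genes). DESeq2 called 2 of 58 lower (cyp-32B1 and cyp-35A2), beside 3.08% of all genes called in either direction. On cco-1 RNAi, 1 gene, cyp-32B1, was lower in lin-40(yth27) worms in edgeR's test (0.498% higher and 0.128% lower of all genes). It had 6.08, 5.61 and 5.32 CPM in lin-40(yth27) worms and 16.2, 11.3 and 12.2 CPM in WT worms on cco-1 RNAi (log2 fold change -1.22 ± 0.22, edgeR adjusted p = 0.0403). On EV it had 3.74, 2.48 and 3.24 CPM in lin-40(yth27) worms and 5.40, 8.10 and 6.08 CPM in WT worms (log2 fold change -1.05 ± 0.22, edgeR adjusted p = 0.0745). The mutant libraries were below the WT libraries on either bacteria. The call on cco-1 RNAi was lost without any 1 of 9 libraries (adjusted p of 0.051 to 0.16) and held without WT EV replicates 1 or 2 or lin-40(yth27) cco-1 RNAi replicate 1. The change of cyp-32B1 upon cco-1 RNAi treatment was 0.85 ± 0.22 on the log2 scale in the mutant (edgeR adjusted p = 0.127) and 1.02 ± 0.22 in WT, a difference of -0.17 ± 0.31.

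Members with known roles outside detoxification were mostly not called. cyp-29A3 and cyp-29A2, of the eicosanoid and fatty acid branch, had log2 fold changes upon cco-1 RNAi treatment of 0.08 ± 0.25 and -0.20 ± 0.25 in lin-40(yth27) worms and of -0.18 ± 0.25 and -0.49 ± 0.25 in WT worms. cyp-33E1 stood at 0.06 ± 0.23 in lin-40(yth27) and -0.02 ± 0.23 in WT. cyp-36A1, which acts downstream of the hypoxia factor HIF-1, stood at 0.27 ± 0.17 in lin-40(yth27) and 0.10 ± 0.17 in WT. None of these passed. cyp-44A1, the only C. elegans P450 of the mitochondrial type, had 12.7, 6.395 and 8.11 CPM in lin-40(yth27) worms on cco-1 RNAi and 9.60, 9.73 and 11.2 CPM in lin-40(yth27) worms on EV. In WT it had 11.5, 11.5 and 11.2 CPM on cco-1 RNAi and 8.78, 11.9 and 12.7 CPM on EV. The cco-1 RNAi and EV groups overlapped in either genotype, and its log2 fold changes were -0.17 ± 0.23 in lin-40(yth27) and 0.03 ± 0.23 in WT. cyp-37B1 had 1.10, 1.30 and 1.33 CPM in lin-40(yth27) worms on cco-1 RNAi, against 2.37, 2.06 and 3.15 CPM on EV, without overlap and without passing (log2 fold change -1.02 ± 0.37, edgeR adjusted p = 0.296), and 0.00 ± 0.35 in WT. In the 25A cluster on chromosome III, whose genes share reads, no gene passed, and the highest per kb, cyp-25A2, stood at 0.56 ± 0.30 in lin-40(yth27) and -0.08 ± 0.30 in WT.

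The 31A subfamily, whose cyp-31A2 and cyp-31A3 are needed with the reductase EMB-8 for the eggshell, varied widely between libraries of 1 group, and no gene of it was called. cyp-31A2 had 12.7, 9.87 and 7.67 CPM in lin-40(yth27) worms on cco-1 RNAi, 9.97, 13.9 and 15.0 CPM in lin-40(yth27) worms on EV, 7.82, 21.1 and 13.3 CPM in WT worms on cco-1 RNAi and 5.57, 13.8 and 9.11 CPM in WT worms on EV. cyp-31A5 had 5.33, 4.45 and 4.69 CPM, 4.06, 6.75 and 7.83 CPM, 1.97, 9.95 and 6.20 CPM, and 2.08, 6.11 and 5.41 CPM in the same order of groups. cyp-31A3 had 10.1, 9.22 and 13.2 CPM in mutants on cco-1 RNAi and 9.65, 11.9 and 12.3 CPM in mutants on EV. In WT worms cyp-31A3 had 7.35, 16.8 and 11.2 CPM on cco-1 RNAi and 8.50, 12.3 and 11.1 CPM on EV. For cyp-31A2, cyp-31A5 and cyp-31A3, WT replicate 1 was the lowest and WT replicate 2 the highest on either bacteria. The oocyte marker sums of the same libraries were 408, 383 and 388 CPM in mutants on cco-1 RNAi, 346, 529.5 and 585 CPM in mutants on EV, 111, 832 and 345 CPM in WT on cco-1 RNAi and 99.9, 406 and 182 CPM in WT on EV. The WT libraries thus took the same order for the oocyte markers as for cyp-31A2, cyp-31A5 and cyp-31A3. cyp-31A1, the annotated pseudogene of the subfamily, did not take it, with 46.3, 35.6 and 35.2 CPM in WT worms on cco-1 RNAi and 27.5, 31.4 and 25.3 CPM on EV (log2 fold change 0.47 ± 0.15, edgeR adjusted p = 0.0937). The 31A genes are similar in sequence, but counts were fractional in only 1 library for cyp-31A2, in 1 for cyp-31A5 and in none for cyp-31A1 and cyp-31A3. The counts thus show almost no division of reads between genes, and whether reads were assigned to the right 31A gene was not tested.

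**Figure D5:**
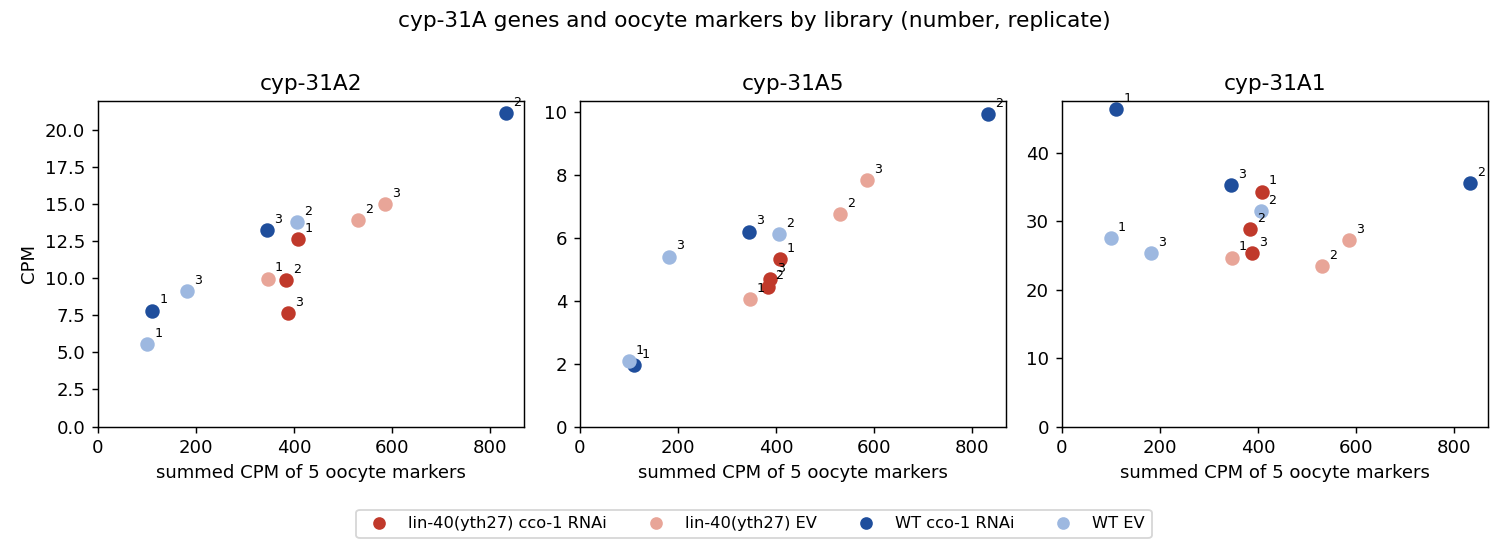
CPM of cyp-31A2, cyp-31A5 and cyp-31A1 (vertical axes) against the summed CPM of 5 oocyte markers (horizontal axes) in each of the 12 libraries, coloured by group and numbered by replicate. Within each WT group, cyp-31A2 and cyp-31A5 are lowest in replicate 1 (marker sum 111 CPM on cco-1 RNAi and 99.9 CPM on EV) and highest in replicate 2, whereas cyp-31A1 is not ordered in this way. The order does not hold over all 12 libraries, as cyp-31A2 is at 7.67 CPM in lin-40(yth27) cco-1 RNAi replicate 3, with a marker sum of 388 CPM.

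Lists of genes that serve P450 enzymes were read beside the share of all genes called upon cco-1 RNAi treatment, 6.25% in WT and 1.16% in lin-40(yth27). Each list held 1 call in WT. Of 3 electron donors, emb-8, the P450 reductase, did not pass, with log2 fold changes of 0.42 ± 0.19 in lin-40(yth27) and 0.52 ± 0.19 in WT, and cytb-5.1, a cytochrome b5, was lower upon cco-1 RNAi treatment in WT (-0.71 ± 0.14, edgeR adjusted p = 0.0149). The dafachronic acid pathway is the route to the steroid hormones of the worm. Of 5 tested genes in or around it, only strm-1, a sterol methyltransferase that is not a step of this route, was called, lower in WT (-0.83, edgeR adjusted p = 0.0318). daf-9 stood at 0.44 in lin-40(yth27) and 0.79 in WT and did not pass. Of 3 heme supply genes, the transporter hrg-1 was higher in WT (1.03, edgeR adjusted p = 0.0461). Of 15 transcriptional regulators of P450 and detoxification genes, only nhr-68, a nuclear receptor of the propionate shunt, was called. It was lower upon cco-1 RNAi treatment in lin-40(yth27) (-0.55, edgeR adjusted p = 0.0362) and in WT (-1.21, edgeR adjusted p = 0.000214), and higher in lin-40(yth27) than in WT on cco-1 RNAi (0.72, edgeR adjusted p = 0.0214). nhr-45, a nuclear receptor of the detoxification response to mitochondrial dysfunction, was at -0.06 in lin-40(yth27) and 0.34 in WT and did not pass.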

How the data were processed

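The authors aligned reads of poly(A)-selected libraries with TopHat in an orientation mode and deposited RSEM expected counts per gene (genome build, RSEM version and the strand setting of the counting: not given in the sources used here), with the unit read from the values. Symbols came from the WBcel235 annotation, and 6 pseudogene symbols from RefSeq entries with identical coordinates. Members and lists were chosen with earlier results of these data known. Expected counts were rounded, filtered with filterByExpr, scaled by TMM and fitted over all 12 libraries with edgeR 4.0.16 (R 4.3.3; quasi-likelihood test, contrasts of 4 group means, Benjamini-Hochberg adjustment over 14867 genes, threshold 0.05). CPM use TMM-scaled totals. The study's methods call replicates biological for its experiments in general, and the labels do not say whether these libraries came from separate cultures, so p-values measure the spread between these libraries; replicates differed by more than sampling noise (chi-square per degree of freedom 4.24 or more). Genes named were the called members, the 8 highest per kb, the highest per kb in each subfamily with at least 3 tested members, the 6 lowest interaction p-values, those of known role and the pathway lists; cyp-13A2, cyp-13A4, cyp-13A5, cyp-13A6, cyp-13A7, cyp-14A3, cyp-31A5, cyp-33C3 and cyp-33C7 were added after their values were seen. Same-numbered WT libraries shared deviations from their group means (log2 CPM with a prior count of 2; r = 0.723, 0.588 and 0.288), so the numbers were taken as pairs in WT; in lin-40(yth27) worms r was -0.324, -0.192 and -0.113. Alternatives were DESeq2 1.42.0, other scalings, no filter, separate fits, replicate blocks and leaving out each library. The scripts were tested on simulated data.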

Additional observations from a re-analysis of the deposited data

How the results depend on the processing

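Under the alternatives run, the 58 P450 genes kept their direction wherever a call had been made, and the counts of calls moved. For cco-1 RNAi over EV in WT, 17 calls (6.25% of all genes) became 7 with the 6 WT libraries fitted alone (1.92% of all genes) and 6 to 19 with 1 library left out (1.93 to 6.89% of all genes), fewest without WT EV replicate 3 (6), WT cco-1 RNAi replicate 2 (8) and WT EV replicate 2 (11). In lin-40(yth27), 6 calls (1.16% of all genes) became 3 with library totals (0.666%), 10 with DESeq2 (2.66%) and 1 to 7 with 1 library left out (0.172 to 1.38%), 1 without EV replicate 2, 2 without EV replicate 1 or 3 and 3 without cco-1 RNAi replicate 1. For lin-40(yth27) over WT on cco-1 RNAi, 1 call (0.626% of all genes) became 0 with library totals (0.262%), with the 6 libraries alone (0.0278%) and with a replicate block (0.0135%), 3 with DESeq2 (2.71%) and 0 to 3 with 1 library left out (0.0398 to 1.71%), 3 without lin-40(yth27) cco-1 RNAi replicate 1. Without WT cco-1 RNAi replicate 1 the 1 call was of another gene, higher in lin-40(yth27) (0.536% of all genes), and cyp-32B1 was lost (edgeR adjusted p = 0.0635). On EV, 0 calls (0.377% of all genes) became 2 with DESeq2 (3.08%). The share of all genes thus moved with these counts. Pairing by the title number changed the other counts to 18 (WT, 8.4% of all genes) and 5 (mutant, 1.7%), and the block within WT gave 22 WT (11%) and 9 mutant calls (2.62%). Pairing by the number in the short sample names, chosen after seeing the data, gave 24 WT calls (15.9% of all genes), 5 mutant calls (2.52%) and 1 in the interaction (cyp-33C8, difference -1.07, edgeR adjusted p = 0.0423; 6.88% of all genes), against 0. The causes were not tested. The calls for cyp-33C8, cyp-14A4, cyp-14A1 and cyp-35A2 in WT and for cyp-33C8 in lin-40(yth27) held in all 20 alternatives. With library totals the median gene stood at 0.193 on the log2 scale in WT (0.06 with TMM) and at -0.177 in mutants (-0.031 with TMM), so changes are relative to the median gene. Depth limits the members at a few counts per library: 15 were not tested, and 14 tested members were below the filter level in at least 1 library, with 3 of them (cyp-13A8, cyp-33C2 and cyp-33C5) called in WT.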
